A study of Mus musculus with 31 samples.

Results

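Foxa1 and Foxa2, a closely related pair of forkhead proteins, regulate genes in lung, liver and other organs that arise from endoderm. They are known as pioneer factors, which can bind their DNA motif in closed chromatin and open it for other factors. Nkx2-1 is a homeodomain factor that is required for lung development and for the identity of alveolar cells, and in lung it is known to act together with Foxa factors at enhancers. The comparison described here asks where Foxa1/2 sat in mouse lung adenocarcinomas with Nkx2-1 deleted, relative to tumors that retained Nkx2-1.

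The members are the Foxa1/2 binding peaks on chromosomes 1 to 19 of both tumor types. There were 14282 such peaks in Nkx2-1-deleted tumors and 22611 in Nkx2-1-positive tumors, together 36893 of the 526837 peaks and islands deposited in the series. They were chosen by the antibody and tumor type in the labels, with no measured value, from 4 of the 31 libraries.

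The 2 Foxa1/2 libraries of deleted tumors are labelled female and the 2 of positive tumors male, so tumor type and sex cannot be told apart in these lists. The histone mark lists used below come from a male and a female sample of each tumor type. All mice were of mixed 129/B6 background and 4 to 7 months old per the labels. Tumors were started with adenovirus or lentivirus given into the trachea and tamoxifen was given at a low or a high dose, per the labels' protocols, which do not say which mouse received what. The driver alleles of the tumors are not given in the sources used here. One antibody that recognizes both Foxa1 and Foxa2 was used, so the factors were not measured apart, and the labels pair each library with an input. Whole tumors were pulverized, so a change in binding per cell and a change in the share of cells that carry it cannot be told apart. The files of both libraries of a group were identical, and their header name carries the tag mrgd, so there is 1 list per tumor type, no spread between samples and no test of the difference between them.

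A peak was called gained when it was in the deleted-tumor list and overlapped no peak of the positive-tumor list, lost in the opposite case, and kept when the lists overlapped by at least 1 bp. Gained peaks numbered 4696, which was 32.9% of the deleted-tumor list (95% Wilson interval 32.1 to 33.7). Lost peaks numbered 13093, which was 57.9% of the positive-tumor list (57.3 to 58.5). Kept peaks were 9586 in the deleted-tumor list (67.1%) and 9518 in the positive-tumor list (42.1%). These percentages are also the base level against which every count of gained, lost or kept peaks below is read. They depend on the lengths of the lists, because the longer list must have more peaks without a partner. With the positive-tumor list cut to its 14282 best-scoring peaks, 47.5% were gained and 48.1% were lost. Lists of equal length with nearly 1-to-1 matches must have nearly equal shares, so this pair of values does not bear on the cause of the gap.

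The balance of gain and loss was similar on all chromosomes. The gained share lay between 29.1% on chromosome 5 and 36.3% on chromosome 8. The lost share lay between 56.0% on chromosome 17 and 60.5% on chromosome 2, and was above the gained share on 19 of 19 chromosomes. The positive-tumor list was the longer one on every chromosome. With nearly 1-to-1 matches this order was therefore fixed by list length and is no separate result. Shares were also taken in windows, which hold few peaks each and so have wide counting error. Over 322 windows of 5 Mb with at least 20 deleted-tumor peaks, the gained share had a median of 32.5%, and 5% of windows stood above 47.0%. The lowest gained share was 3 of 34 peaks, on chromosome 10 between 85000001 and 90000000 (build mm9, 8.82%, interval 3.05 to 23.0). The highest was 13 of 23 peaks, on chromosome 8 between 20000001 and 25000000 (56.5%, 36.8 to 74.4). For lost peaks, 398 windows had a median of 57.6%, and the extremes were 8 of 23 peaks on chromosome 1 between 65000001 and 70000000 (34.8%, 18.8 to 55.1) and 21 of 25 peaks on chromosome 10 between 30000001 and 35000000 (84.0%, 65.3 to 93.6). These windows were picked as the extremes of many, so their intervals are a description only, and whether windows varied beyond counting error was not tested.

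The authors' peak caller gave each peak a score, and its scale need not be the same in both lists. It was therefore used here only as a rank percentile within a list, where 100 is the highest. Gained peaks had a median rank percentile of 31.7, against 60.4 for kept peaks of the deleted-tumor list. Lost peaks had a median of 38.9, against 66.4 for kept peaks of the positive-tumor list. In the lowest quartile of the deleted-tumor list 53.3% (51.7 to 55.0) of peaks were gained, and in the highest quartile 10.1% (9.12 to 11.1). In the lowest quartile of the positive-tumor list 77.3% (76.1 to 78.3) were lost, and in the highest quartile 33.4% (32.2 to 34.7). Loss thus reached into the best-scoring binding sites of positive tumors, with 1889 lost peaks in that quartile, against 359 gained peaks in the highest quartile of the deleted-tumor list. Those quartiles held 5648 and 3567 peaks, and the positive-tumor peaks had the shorter list to match. The contrast thus depends on list length too, and it was not taken at equal list lengths. Whether unpartnered peaks had signal just too weak to be called in the other tumor type was not tested.

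Positions are in build mm9. The gained peak of highest rank lay at chr6:22316392-22317677, with a rank percentile of 99.4, 4953 bp from a kept peak. H3K27ac, the acetylation of active promoters and enhancers, covered 100% of it in deleted tumors and 78.4% in positive tumors. H3K4me1, the methylation typical of enhancers, covered 100% of it in deleted tumors and 0% in positive tumors. The next gained peaks by rank lay at chr7:120873379-120874724 and at chr1:90851015-90852232. Both were covered in full by H3K27ac and H3K4me1 in deleted tumors, and neither mark was present on them in positive tumors. None of these 3 gained peaks overlapped an Nkx2-1 peak, and over all gained peaks only 8.01% did.

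The lost peak of highest rank lay at chr18:3617786-3619689, 221476 bp from a kept peak, with a rank percentile of 99.98. H3K27ac covered 0% of it in deleted tumors and 95.3% in positive tumors. H3K4me1 covered 95.3% of it in deleted tumors and 100% in positive tumors. The next lost peaks by rank, at chr5:140581434-140582839 and at chr14:31637161-31638683, were covered in full by both marks in deleted and in positive tumors. These 2 lay 4076 and 4670 bp from a kept peak. All 3 lost peaks overlapped an Nkx2-1 peak of positive tumors, as did 66.5% of all lost peaks, so this does not set these 3 apart.

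Kept peaks were paired 1 to 1, each with the overlapping peak of the other list whose summit was nearest, which gave 9490 pairs. Only 34 kept deleted-tumor peaks overlapped more than 1 positive-tumor peak, and 98 kept positive-tumor peaks overlapped more than 1 deleted-tumor peak. The overlap was nearly complete: the shorter peak lay fully inside the longer one in the median pair, and 35 pairs (0.369%) overlapped by less than 50% of the shorter peak. Peaks of a pair had a median width of 940 bp in deleted tumors and 1051 bp in positive tumors. The positive-tumor peak was the wider one in 68.2% of pairs.

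The ranks of kept pairs agreed only in part. Over the 9490 pairs, ranked among themselves in each list, Spearman's rho was 0.450. By chromosome it lay between 0.380 and 0.514. These sites share their libraries, and peak width and depth enter both ranks, so rho is a description. Of the 2370 pairs in the highest quartile by deleted-tumor rank, 53.9% (51.9 to 55.9) were also in the highest quartile by positive-tumor rank, and 6.79% (5.85 to 7.88) were in the lowest. Of the pairs in the lowest quartile by deleted-tumor rank, 41.2% (39.2 to 43.2) were in the lowest and 10.3% (9.14 to 11.6) in the highest quartile by positive-tumor rank. Of the top 10% by deleted-tumor rank 44.2% (41.1 to 47.4) were in the top 10% by positive-tumor rank, and of the top 5% 38.8% (34.5 to 43.3). Unrelated ranks would share 25%, 10% and 5% in the top quartile, top 10% and top 5%, so these shares are not comparable between set sizes. The score 3100 was shared by 47 peaks of the deleted-tumor list and 310 of the positive-tumor list, so the order at the very top is partly tied.

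The rank of a kept site moved with Nkx2-1 binding, a readout that the pairing did not use. Pairs whose positive-tumor peak overlapped an Nkx2-1 peak numbered 5206, and the other 4284 did not. In pairs with an Nkx2-1 peak the median rank percentile was 51.5 in deleted tumors and 66.8 in positive tumors. In pairs without one it was 48.4 in deleted tumors and 31.2 in positive tumors. The median shift of a pair, deleted minus positive, was -7.43 percentile points (95% interval from order statistics -8.38 to -6.46) with Nkx2-1 and 12.8 points (11.9 to 13.8) without. The first was below 0 and the second above 0 on 19 of 19 chromosomes. Because the pairs were ranked among themselves in each list, their mean shift is 0 by construction. A mean fall in pairs with Nkx2-1 must thus be met by a mean rise in the others, and the opposite signs are not separate results. Whether binding without Nkx2-1 grew in strength cannot be told from ranks.

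**Figure D1:**
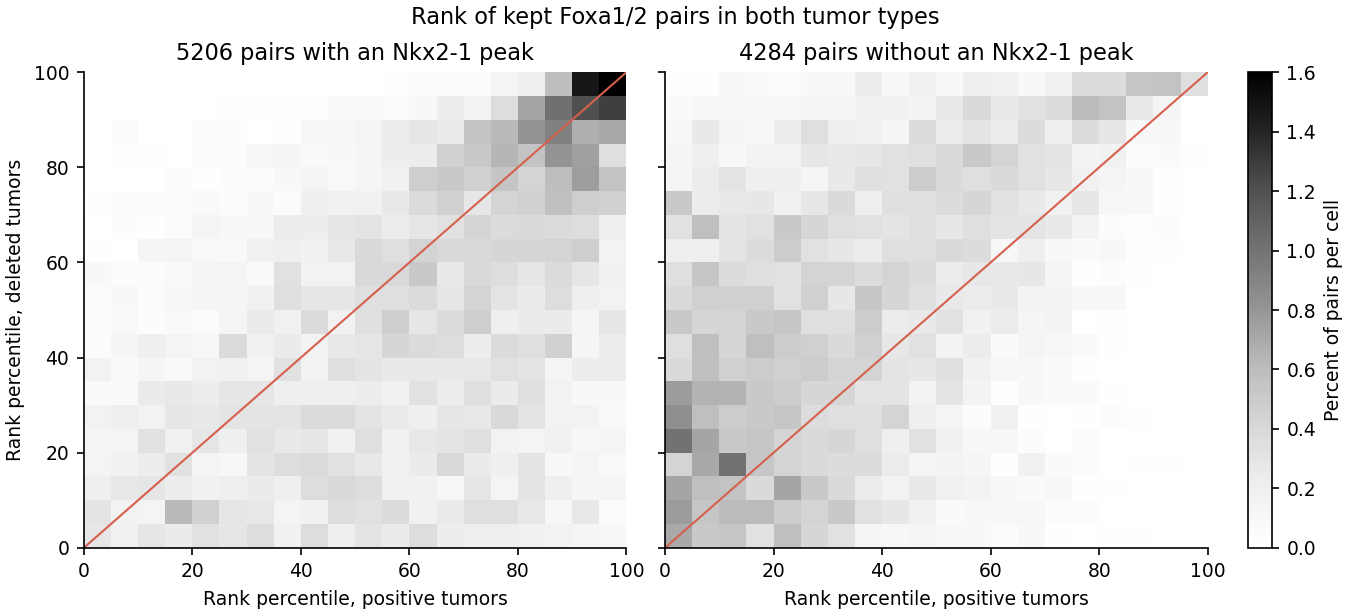
Density of kept Foxa1/2 pairs by rank percentile in positive tumors (x axis) and in deleted tumors (y axis), for 5206 pairs with an Nkx2-1 peak (left) and 4284 pairs without one (right); shading gives the percent of each panel's pairs per cell of 5 by 5 points and the line marks equal rank. Pairs with Nkx2-1 gather in the upper right and spread below the line, with a median shift of -7.43 points, and pairs without it lie mostly above the line, with a median shift of 12.8 points.

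Because pairs with Nkx2-1 stood higher in the positive-tumor list, the deleted-tumor rank was also compared at like positive-tumor rank. It was lower with Nkx2-1 than without it in each quartile of the positive-tumor rank, with differences of -11.4, -12.9, -16.6 and -14.6 points from the lowest to the highest quartile. In the highest quartile the median deleted-tumor rank percentile was 75.7 for 2053 pairs with Nkx2-1 and 90.3 for 319 pairs without. The Nkx2-1 list comes from positive tumors of male mice, as does the positive-tumor Foxa1/2 list, and sex and tumor type cannot be told apart here.

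Grouped by rank shift, the pairs differed in how many had an Nkx2-1 peak. Among the 593 pairs whose rank was more than 50 points lower in deleted tumors, 89.9% (87.2 to 92.1) had an Nkx2-1 peak. Among the 2948 pairs within 10 points the share was 60.9% (59.1 to 62.7). Among the 475 pairs whose rank was more than 50 points higher in deleted tumors it was 10.7% (8.26 to 13.8). Part of this is fixed by the starting rank: a fall of more than 50 points is possible only for a high positive-tumor rank, and a rise of that size only for a low one. The share with Nkx2-1 was 26.2%, 42.8%, 63.9% and 86.6% from the lowest to the highest quartile of positive-tumor rank.

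Rank shifts also differed with H3K27ac at kept pairs. In 205 pairs an H3K27ac island was present in deleted tumors only, and their median rank shift was 33.2 points (26.3 to 36.8). In 288 pairs the island was present in positive tumors only, and their median rank shift was -16.5 points (-23.2 to -11.7). In the 8540 pairs with H3K27ac in both tumor types the median shift was 0.927 points (0.411 to 1.48). Among these the shift was -6.86 points (-7.78 to -5.80) in 5061 pairs with Nkx2-1 and 13.5 points (12.4 to 14.6) in 3479 pairs without. Among pairs with H3K27ac in positive tumors only, the shift was -40.6 points (-49.4 to -31.7) in 102 pairs with Nkx2-1 and -5.54 points (-10.4 to 1.03) in 186 pairs without, an interval that holds 0. Of the 205 pairs with H3K27ac in deleted tumors only, 193 had no Nkx2-1 peak, and their shift was 33.6 points (29.7 to 37.1). The groups also started at unlike positive-tumor ranks. The median was 20.8 with H3K27ac in deleted tumors only and 56.1 with it in positive tumors only. Within the latter it was 76.3 with Nkx2-1 and 39.7 without. A low start leaves more room to rise and a high start more room to fall. Shifts by H3K27ac were not compared at like starting rank.

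The 3 pairs with the largest positive rank shift lay at chr5:112730854-112731977, chr6:129162411-129164356 and chr19:55694693-55695889. Their rank percentiles were 94.3, 94.2 and 95.8 in deleted tumors, against 0.100, 1.22 and 4.17 in positive tumors. None had an Nkx2-1 peak. H3K27ac covered 100% of all 3 in deleted tumors, and 64.3%, 100% and 57.6% of them in positive tumors.

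The 3 pairs with the largest negative rank shift lay at chr2:68303362-68305905, chr14:12444976-12447825 and chr6:127802277-127805417. Their rank percentiles were 0.590, 1.17 and 3.03 in deleted tumors, and each stood at 98.2 in positive tumors, where all 3 held the tied score of 3100. All had 1 or 2 Nkx2-1 peaks. H3K27ac covered at least 99.1% of each in both tumor types, so the acetylated length hardly differed at these sites.

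The pairs of best summed rank, at chr13:110271140-110272882, chr14:35161562-35163042 and chr18:3838775-3840551, had rank percentiles of 99.9, 99.6 and 98.8 in deleted tumors and 99.6, 99.9 and 99.9 in positive tumors. Their summits lay 5, 4 and 15 bp apart. Both marks covered 100% of each in both tumor types, and the first and the last of them had an Nkx2-1 peak.

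Foxa1/2 stayed on nearly the same base pairs at most kept sites. The summit, the position of highest signal in a peak, differed between the tumor types by a median of 21 bp (21 to 22; n = 9490 pairs), with 25% of pairs within 9 bp and 75% within 47 bp. Neither direction along the chromosome prevailed by much, as the deleted-tumor summit was at the higher coordinate in 4596 pairs and at the lower in 4756, and 138 summits were identical. Chromosome medians lay between 19 and 24 bp.

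Better-ranked sites had closer summits. By deleted-tumor rank, the median summit distance was 29 bp (27 to 31) in the lowest quartile, then 26, 21 and 13 bp (13 to 14) in the highest. Pairs in the highest quartile of both lists had a median of 12 bp (11 to 13), and 91.4% of them lay within 50 bp. Pairs in the lowest quartile of both had a median of 31 bp (28 to 35), and 65.5% lay within 50 bp.

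**Figure D2:**
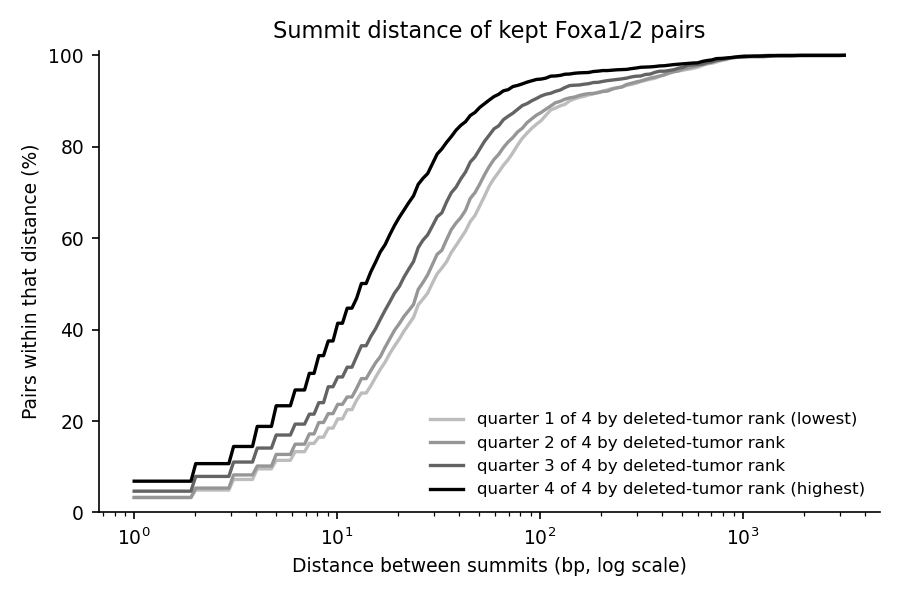
Share of kept Foxa1/2 pairs (y axis, percent) whose summits in deleted and positive tumors lay within a given distance (x axis, bp, log scale), for 4 quartiles of the pairs by deleted-tumor rank. The curve of the highest quartile rises first, with a median of 13 bp, and that of the lowest quartile last, with a median of 29 bp.

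A minority of kept sites had summits far apart. In 595 pairs (6.27%, interval 5.80 to 6.78) the distance exceeded 200 bp, and in 259 (2.73%) it exceeded 500 bp. The share grew with peak width. It was 2.14% (1.70 to 2.70) where the wider peak was at most 1000 bp, 5.76% (5.13 to 6.47) up to 1500 bp, 15.6% (13.6 to 17.8) up to 2000 bp and 18.6% (15.2 to 22.7) beyond. It was 8.41% (7.69 to 9.20) in pairs with an Nkx2-1 peak and 3.66% (3.14 to 4.27) in pairs without. It was 11.6% (9.30 to 14.5) in pairs whose rank was more than 50 points lower in deleted tumors and 3.58% (2.25 to 5.66) in those more than 50 points higher. The contrasts by Nkx2-1 and by rank shift were not made at like peak width or like rank.

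Where the summit moved far at a site with Nkx2-1, it lay farther from the Nkx2-1 summit in deleted tumors. This was examined in 4950 pairs in which both Foxa1/2 peaks overlapped the same single Nkx2-1 peak. Over all of them the Foxa1/2 summit lay a median of 95 bp from the Nkx2-1 summit in deleted tumors and 78 bp in positive tumors. The deleted-tumor summit was the farther one in 55.6% of pairs (54.2 to 57.0) and the nearer one in 42.8%. In the 395 pairs with a summit distance over 200 bp the medians were 453 bp in deleted tumors, against 87 bp in positive tumors, and the deleted-tumor summit was the farther one in 316 (80.0%, 75.8 to 83.6). The Nkx2-1 list and the positive-tumor Foxa1/2 list come from tumors of the same type and sex. The part of sex and tumor type in this result was not tested.

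The largest summit distances were 3049 bp at chr12:8815451-8819724, 1876 bp at chr14:102237292-102240255 and 1790 bp at chr11:94200643-94203730. These regions spanned 4274, 2964 and 3088 bp and held 1, 2 and 1 Nkx2-1 peaks. H3K27ac and H3K4me1 covered 100% of each in both tumor types. Their rank shifts lay between -13.1 and -11.1 points.

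By median distance within a list, gained and lost peaks lay farther from kept peaks than kept peaks did from each other. Measured between summits within a list, gained peaks lay a median of 34225.5 bp from the nearest kept peak (interval 32094 to 36100 bp), and lost peaks 33772 bp (32837 to 35028 bp). For comparison, kept peaks lay a median of 23602.5 bp (22603 to 24513 bp) from the nearest other kept peak in the deleted-tumor list and 24174.5 bp (23259 to 25041 bp) in the positive-tumor list. The intervals of changed and kept peaks did not meet, but they cover counting error only, and neighbouring peaks are not independent. With only the upper 50% of each list by score, the distances to a kept peak grew to 72428 bp for gained and 77006 bp for lost peaks, since fewer kept peaks remained. A summit within 1 kb of a kept summit was found for 13 gained peaks (0.277%) and 31 lost peaks (0.237%).

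At wider scales 12.8% (11.9 to 13.8) of gained and 13.9% (13.3 to 14.5) of lost peaks lay within 5 kb of a kept peak. Kept peaks had another kept peak within 5 kb in 18.5% of cases in the deleted-tumor list and 17.6% in the positive-tumor list. Beyond 100 kb from any kept peak lay 1070 gained peaks (22.8%) and 3300 lost peaks (25.2%). Beyond 1 Mb lay 32 gained and 168 lost peaks, which is 0.681% and 1.28% of their class.

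**Figure D3:**
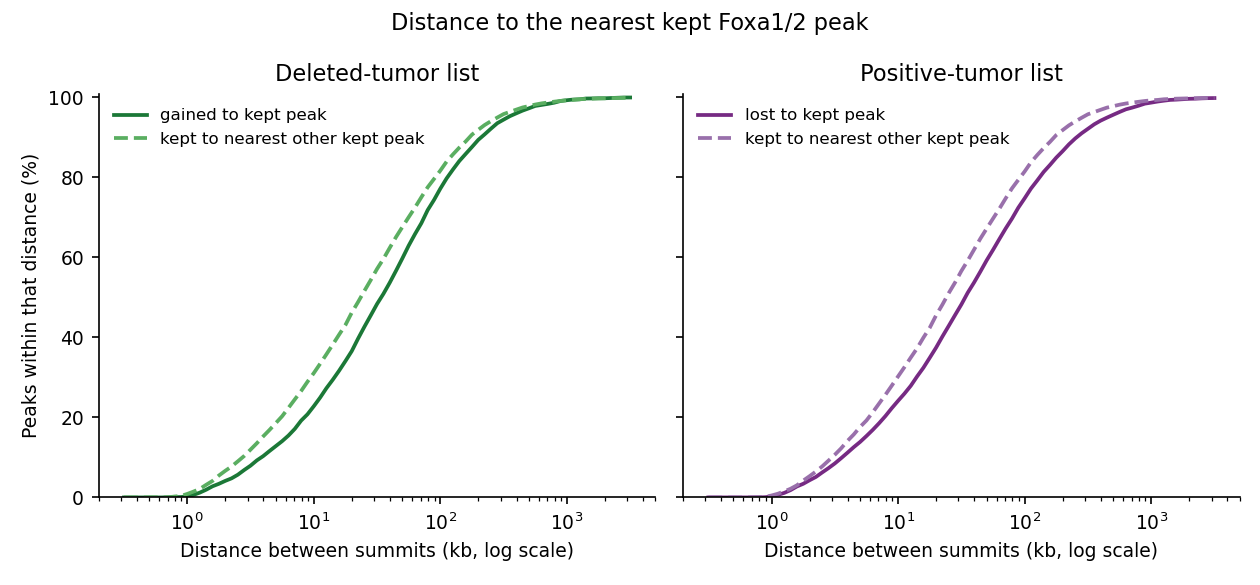
Share of Foxa1/2 peaks (y axis, percent) within a given summit distance (x axis, kb, log scale) of the nearest kept peak, in the deleted-tumor list (left) and the positive-tumor list (right). The solid curves of gained and lost peaks lie right of the dashed curves of kept peaks, with medians of 34225.5 bp (gained) and 33772 bp (lost) against 23602.5 and 24174.5 bp (kept).

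The distance of gained and lost peaks to a kept peak changed little with their rank. For gained peaks the median was 34692.5, 31531.5, 36456 and 33618 bp from the lowest to the highest quartile of the deleted-tumor list, with overlapping intervals. For lost peaks it was 33018, 33703.5, 33235.5 and 38335 bp over the quartiles of the positive-tumor list. The interval of the highest quartile of lost peaks, 34694 to 42515 bp, touched that of the lowest, 31178 to 34701 bp.

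The most remote gained peaks lay at chr8:67204509-67205533, chr16:67516832-67517793 and chr15:44234243-44235127, at 2805555, 2742073 and 2573252 bp from a kept peak. Their rank percentiles were 58.1, 47.6 and 57.2. The peak on chromosome 16 lay under no H3K27ac or H3K4me1 in either tumor type. The 3 most remote lost peaks lay close together, at chr16:70329412-70330454, chr16:70535230-70536085 and chr16:70568631-70569290, 5180434 to 5419465 bp from a kept peak. Their rank percentiles were 65.1, 8.60 and 8.60, and the first and the last of them overlapped an Nkx2-1 peak. H3K4me1 covered 100%, 100% and 55.9% of them in deleted tumors and all 3 in full in positive tumors.

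The chromatin around gained and lost peaks differed with their distance to a kept peak, a readout independent of the Foxa1/2 lists. Of gained peaks within 5 kb of a kept peak, H3K27ac was present at 97.0% in deleted tumors and 90.4% in positive tumors, a difference of 6.64 points. At 5 to 25 kb the shares were 88.9% and 76.2%, and at 25 to 100 kb 79.7% and 64.2%. Beyond 100 kb they were 68.3% (65.5 to 71.0) in deleted tumors and 48.5% (45.5 to 51.5) in positive tumors, a difference of 19.8 points. Lost peaks mirrored this. Within 5 kb of a kept peak H3K27ac was present at 92.1% of lost peaks in deleted tumors and 98.5% in positive tumors, a difference of -6.34 points. At 5 to 25 kb the shares were 81.9% and 94.4%, and at 25 to 100 kb 64.9% and 87.5%. Beyond 100 kb they were 42.8% (41.1 to 44.5) in deleted tumors and 76.3% (74.8 to 77.7) in positive tumors, a difference of -33.5 points.

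Part of the acetylation near kept peaks was the kept peak's own island. Of the 1672 lost peaks within 5 kb that had H3K27ac in deleted tumors, 87.0% (85.3 to 88.5) lay under an island that also covered a kept peak. At 5 to 25 kb this share was 22.5%, and beyond 100 kb it was 0 of 1412. For gained peaks with H3K27ac in positive tumors the share under an island of a kept peak was 84.6% within 5 kb, 22.2% at 5 to 25 kb and 0 of 519 beyond 100 kb. Among lost peaks under no shared island, H3K27ac was present in deleted tumors at 60.4% within 5 kb, 77.8% at 5 to 25 kb, 64.9% at 25 to 100 kb and 42.8% beyond. Among such gained peaks it was present in positive tumors at 59.2%, 71.4%, 64.0% and 48.5%. Without shared islands the share thus did not fall steadily with distance and was not highest nearest to kept peaks. Only acetylated peaks are left out this way, most of them near kept peaks, so these shares are a description.

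H3K4me1 differed in the same directions, by similar amounts at gained peaks (7.48 points within 5 kb and 16.5 points beyond 100 kb) and by smaller amounts at lost peaks (-2.59 and -15.2 points). At gained peaks beyond 100 kb it was present at 85.1% in deleted tumors, against 68.6% in positive tumors, and within 5 kb at 98.2% and 90.7%. At lost peaks beyond 100 kb it was present at 80.2% in deleted tumors, against 95.4% in positive tumors, and within 5 kb at 97.1% and 99.7%. At kept peaks far from any other kept peak, beyond 100 kb, H3K27ac was present at 81.7% in deleted tumors and 83.9% in positive tumors (deleted-tumor list), so the large differences of remote peaks were not seen at equally remote kept peaks. The rank of gained and lost peaks did not follow distance, with medians between 30.9 and 32.2 for gained and between 37.9 and 40.7 for lost peaks over the 4 distance groups.

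Nkx2-1 peaks were less frequent at remote peaks of every class. They overlapped 11.5% (9.16 to 14.3) of gained peaks within 5 kb of a kept peak and 5.33% (4.13 to 6.84) beyond 100 kb. They overlapped 70.7% (68.6 to 72.7) of lost peaks within 5 kb and 62.7% beyond 100 kb. For kept peaks of the positive-tumor list, by the distance to the next kept peak, the shares were 60.7% and 47.8%.

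Gained peaks tended to lie next to gained peaks, and lost peaks next to lost peaks. The nearest other peak in the deleted-tumor list was gained for 38.4% (37.0 to 39.8) of gained peaks and for 29.3% (28.4 to 30.2) of kept peaks, around the base level of 32.9%. The difference, 9.05 points, had this direction on 18 of 19 chromosomes. The nearest other peak in the positive-tumor list was lost for 61.6% (60.8 to 62.4) of lost peaks and for 52.7% (51.7 to 53.7) of kept peaks, around 57.9%. The difference, 8.91 points, had this direction on 19 of 19 chromosomes. Peaks that are each other's nearest neighbour enter 2 times, so these intervals are too narrow.

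Compared only within the same rank quartiles of both neighbours, the difference was 9.87 points for gained and 11.3 points for lost peaks, and it was above 0 in 16 of 16 combinations of quartiles for each class. Compared within the same Nkx2-1 status of both neighbours, it was 5.30 points for gained and 8.41 points for lost peaks. With rank quartiles and Nkx2-1 status held together, it was 6.22 and 10.9 points. The Nkx2-1 status of gained peaks is limited by their definition, since they avoid all positive-tumor Foxa1/2 peaks.

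The tendency was local. Among deleted-tumor peaks less than 2 kb apart, the neighbours of gained peaks were gained in 39.1% of cases and those of kept peaks in 23.0%. At 5 to 10 kb the shares were 39.6% and 26.8%, at 50 to 100 kb 33.3% and 31.5%, and at 500 to 1000 kb 32.5% and 33.2%. Among positive-tumor peaks less than 2 kb apart, the neighbours of lost peaks were lost in 65.2% of cases and those of kept peaks in 52.7%. At 10 to 25 kb the shares were 59.6% and 52.5%, at 50 to 100 kb 57.4% and 54.8%, and at 500 to 1000 kb 57.6% and 57.4%. The difference was 12.8 points or more up to 10 kb for gained peaks and 7.13 points or more up to 25 kb for lost peaks, and under 1 point beyond 250 kb for both. For gained peaks it did not fall evenly, with 3.96 points at 10 to 25 kb and 7.09 points at 25 to 50 kb.

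**Figure D4:**
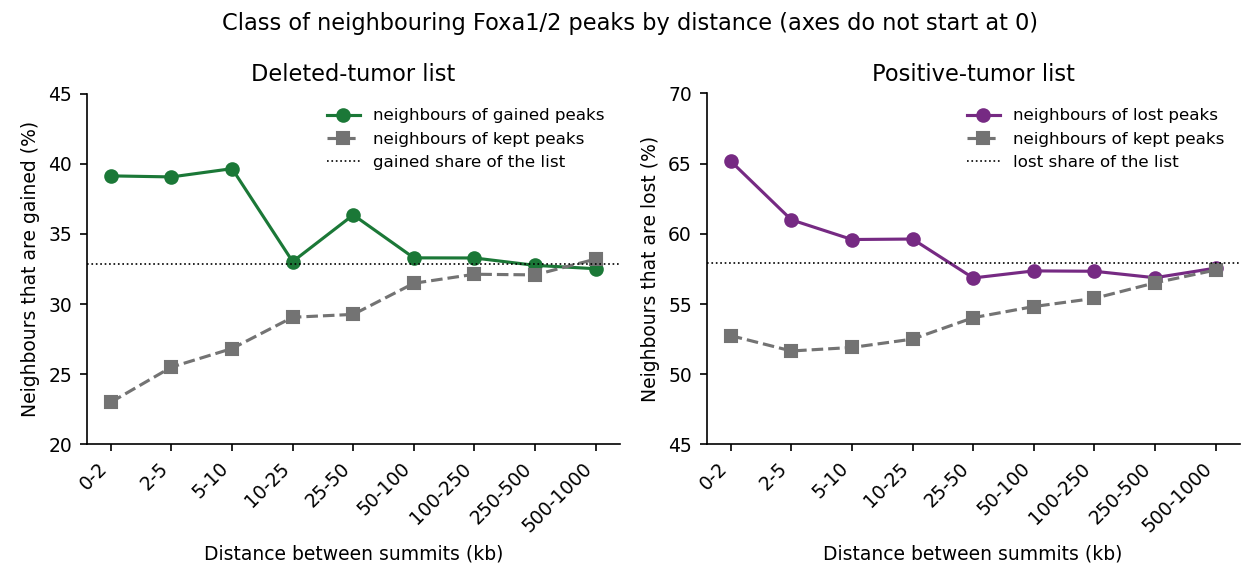
Share of neighbouring peaks that are gained (left, deleted-tumor list) or lost (right, positive-tumor list) by the distance between summits in kb, for neighbours of peaks of that class (circles) and of kept peaks (squares), with the class's share of the list as a dotted line. The curves stand 16.1 points (gained) and 12.4 points (lost) apart below 2 kb and meet at 250 to 1000 kb; the y axes do not start at 0.

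Gained and lost peaks were also less often neighbours of each other than their shares of all places. Over all 27279 places, counted once each, 17.2% were gained, 48.0% lost and 34.8% kept. The nearest other place of a gained peak was lost in 35.6% (34.2 to 37.0) of cases, and within 10 kb in 31.2% (29.3 to 33.3), both below the 48.0% of lost places overall. The nearest place of a lost peak was gained in 12.1% (11.5 to 12.6) of cases, and within 10 kb in 9.36% (8.69 to 10.1), both below 17.2%. For kept places the nearest place was gained in 17.2% (16.4 to 17.9) of cases and within 10 kb in 15.6% (14.6 to 16.6), and it was lost in 44.9% (43.9 to 45.9) and within 10 kb in 44.4% (43.0 to 45.7). The nearest place was kept for 37.5% of gained, 32.8% of lost and 37.9% of kept places, against 34.8% of places overall. Within 10 kb these shares were 40.3%, 33.8% and 40.1%. By this count gained places neighboured kept places about as often as kept places did, although the median distance to a kept peak was larger. Gained peaks lay a median of 38710.5 bp (37279 to 40394) from the nearest lost peak, against 21360.5 bp (20629 to 22288) for kept peaks of the same list. At the shortest range this order did not hold: a lost summit lay within 1 kb of 23 gained peaks (0.490%) and of 31 kept peaks of the deleted-tumor list (0.323%).

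Changes in rank at kept sites were shared little between neighbours. The nearest kept pair within 5 kb changed rank in the same direction in 53.7% (51.3 to 56.1) of 1620 cases. Beyond 100 kb the share was 52.0% (49.7 to 54.3). The intervals overlapped.

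Peaks were then chained into clusters wherever neighbouring summits lay within 12500 bp. In the deleted-tumor list 57.4% of peaks stood alone and 801 clusters held 3 or more peaks. Of these 801, 32 (4.00%) were entirely gained, 277 (34.6%) entirely kept and 492 mixed. In the positive-tumor list 44.8% of peaks stood alone and 1790 clusters held 3 or more peaks. Of these 1790, 308 (17.2%) were entirely lost, 7.88% entirely kept and 1341 mixed. These shares depend on the 32.9% of gained and 57.9% of lost peaks in the lists as wholes, and whether clusters were of 1 class more often than those shares give was not tested.

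The lost share varied little with cluster size, and its largest changes, in the highest and the second rank quartile, had opposite directions. In the highest rank quartile of the positive-tumor list 35.4% of lone peaks and 29.6% of peaks in clusters of 5 or more were lost. In the second quartile from below the shares were 65.1% and 70.7%. In the lowest quartile they were 77.0% and 79.1%, and in the third 53.3% and 52.7%. For gained peaks the share fell with cluster size in the deleted-tumor list, to 25.4% (22.2 to 28.9) in clusters of 5 or more, against 34.5% (33.5 to 35.6) among lone peaks.

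Overlap with Nkx2-1 was common in clusters that were lost as a whole, as it was over all lost peaks. At least 1 of the lost peaks overlapped an Nkx2-1 peak in 305 of the 308 clusters that were entirely lost, against 90.8% of the clusters that were entirely kept. Counted by peak, Nkx2-1 overlapped 72.6% (69.9 to 75.2) of the 1059 peaks in entirely lost clusters and 62.1% (57.7 to 66.4) of the 470 peaks in entirely kept clusters. Lone peaks had lower shares, at 62.1% (60.8 to 63.3) for lost and 47.4% (45.9 to 48.9) for kept. Over all lost peaks the share was 66.5%, and over all kept peaks of the positive-tumor list 54.9%. In entirely lost clusters H3K27ac was present at 74.8% of peaks in deleted tumors and at 96.3% in positive tumors. At lost peaks of mixed clusters it was present at 91.2% in deleted tumors, against 98.2% in positive tumors, and at lone lost peaks at 54.0% and 79.8%.

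The 32 entirely gained clusters held 99 peaks. H3K27ac was present at 94.9% of them in deleted tumors, against 79.8% in positive tumors, and H3K4me1 at 98.0% and 80.8%. Nkx2-1 overlapped 12.1% (7.07 to 20.0) of them. Lone gained peaks had H3K27ac at 74.6% in deleted tumors and 58.8% in positive tumors.

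The 3 largest entirely gained clusters held 4 peaks each. The one on chromosome 14 lay at chr14:70782504-70790844 and spanned 8341 bp, 20771 bp from a kept peak. The rank percentiles of its peaks ran from 2.15 to 72.9. H3K27ac covered 97.1% of the cluster in deleted tumors, against 40.8% in positive tumors, and H3K4me1 covered 71.2% and 16.8%. The other two lay at chr16:48603783-48614813 and chr15:97195150-97207830. H3K27ac covered 81.9% of the one on chromosome 16 in deleted tumors and 58.2% in positive tumors. It covered 77.9% of the one on chromosome 15 in deleted tumors and 63.7% in positive tumors. None of the 3 held an Nkx2-1 peak.

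The largest entirely lost cluster lay at chr16:22527489-22551934 and held 8 peaks within 24446 bp, 16319 bp from a kept peak. Their rank percentiles ran from 1.77 to 99.1, and 5 Nkx2-1 peaks lay among them. H3K27ac covered 70.5% of the cluster in deleted tumors, against 94.3% in positive tumors, and H3K4me1 covered 76.3% and 84.4%. The cluster at chr17:10901966-10931422 held 7 lost peaks and 4 Nkx2-1 peaks, 245748 bp from a kept peak. H3K27ac covered 23.8% of it in deleted tumors and 64.7% in positive tumors. The cluster at chr11:115627339-115641291 held 6 lost peaks and 4 Nkx2-1 peaks, and H3K27ac covered 84.2% of it in deleted tumors and 95.7% in positive tumors.

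**Figure D5:**
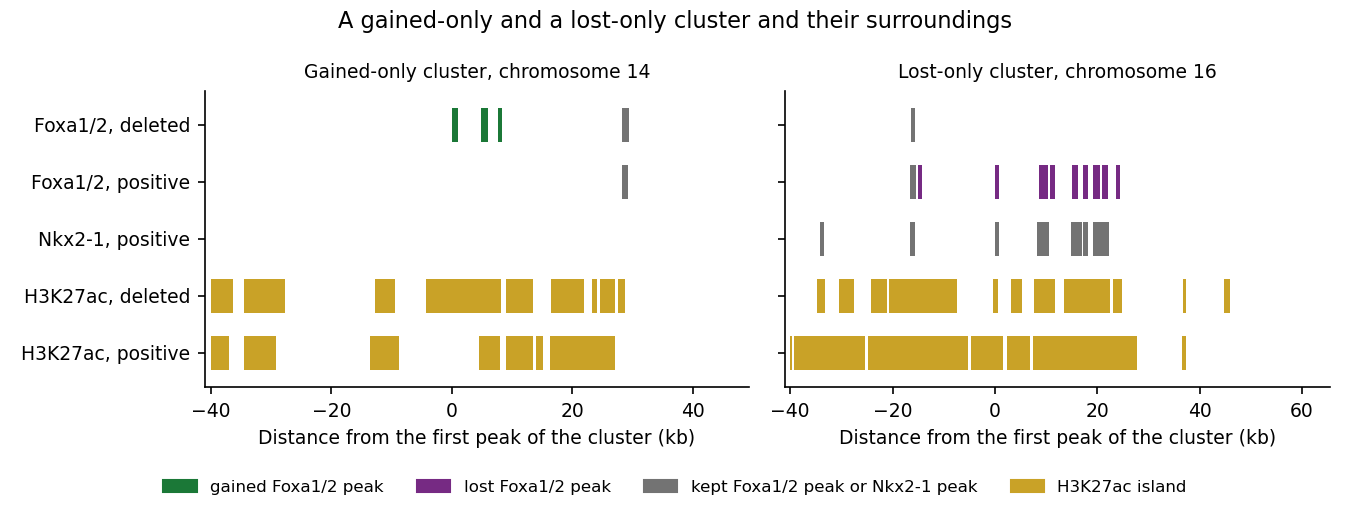
Map of 1 of the 3 entirely gained clusters with 4 peaks (left, chromosome 14) and the largest entirely lost cluster (right, chromosome 16), with the distance in kb from the first peak on the x axis and rows for Foxa1/2 peaks, Nkx2-1 peaks and H3K27ac islands by tumor type. The left map shows 4 gained peaks, of which the middle ones nearly touch, and no Nkx2-1 peak, and the right map shows the 8 peaks of the lost cluster with 5 Nkx2-1 peaks among them; 1 more lost peak at its left lies beside a kept peak, outside the cluster.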

How the data were processed

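Foxa1/2 binding was measured by chromatin immunoprecipitation and sequencing. Per the submitters' processing notes, build mm9 was used along with MACS 1.4.2, SICER 1.1 and Bowtie, and the notes assign no step to a tool. Per the file headers the Foxa1/2 lists carry the tag mrgd, read here as merged, and a p of 1e-06 in their names, and peak names start with MACS. The deposited score of a peak, at least 60, was used only as a rank within its list. Deposited start, end and summit positions were used as given, on chromosomes 1 to 19. Of the H3K27ac and H3K4me1 lists and the Nkx2-1 list only positions were used, and a mark or factor was present when it covered at least 1 bp of a peak. Library depths are not given in the sources used here.

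Because the 2 Foxa1/2 files of a group were identical, 1 list stood for each group and no test between tumor types was made. Shares have 95% Wilson intervals and medians 95% intervals from binomial order statistics; both cover counting error over peaks only, and neighbouring peaks are not independent. Regions are named by rule (extremes of rank, rank shift, summit distance, distance and cluster size, 3 each). Members, lists and comparisons were chosen with earlier results of these data known. Coordinates are 1-based. No annotation of build mm9 was used here, so no gene is named and no sequence printed. The matching and neighbour steps were tested on simulated data. Python 3.11.15, numpy 2.4.6, scipy 1.17.1 and matplotlib 3.10.9 were used. Alternatives are given in the closing section.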

Additional observations from a re-analysis of the deposited data

How the results depend on the processing

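Of 45 recomputed values for the 8 main measures, 20 stayed within the interval of the reported value and 25 moved outside it. With an overlap of at least 50% of the shorter peak, or with chromosome X added, none moved. With summits within 200 bp as the same place, 37.7% were gained and 60.7% lost, the summit distance of pairs was 20 bp, lost peaks lay 35127 bp from a kept peak, and 40.9% of gained and 63.7% of lost peaks had a neighbour of their class. With the upper 50% of each list by score, 36.6% were gained and 60.2% lost, 51.3% of the top quartile agreed, the summit distance was 16 bp, the distance to a kept peak was 72428 bp for gained and 77006 bp for lost peaks, and 40.7% and 63.1% had a neighbour of their class. That cut removes peaks, so distances grow by construction. With equal numbers of peaks, 47.5% were gained and 48.1% lost, 51.5% of the top quartile agreed, the summit distance was 20 bp, the distances were 42283.5 bp and 44021 bp, and 50.8% and 53.2% had a neighbour of their class. Pairs of peaks at most 1000 bp wide had a summit distance of 25 bp. Between edges, lost peaks lay 32805 bp from a kept peak. With the nearest other peak at least 5 kb away, 60.5% of lost peaks had a lost neighbour. The share of neighbours of the same class exceeded the class's share of the list under every setting, by 3.16 to 5.49 points for gained and 2.62 to 5.14 points for lost peaks. Chaining within 5 kb gave 8 entirely gained and 147 entirely lost clusters, and within 25 kb 41 and 405.

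No paired analysis was possible because both files of each group were identical, and leaving out a replicate could not be done for the same reason. The lists give no depth, so whether a peak without a partner was weak or absent in the other tumor type was not detectable here.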
